A study of Mus musculus with 161 samples.

Results

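The comparison described here set a CTCF with exchanged termini, the N/C-term-swap, against a CTCF that lacks its N terminus, ΔN(1–265), in mouse embryonic stem cells (mESCs). It asked whether a misplaced N terminus behaved like an absent one across a chromosome-conformation capture carbon copy (5C) contact map. The libraries were chosen by their labels alone: 2 of the swap line (EN187.3) and 10 of ΔN(1–265), labelled Del_1-265, of which 6 came from clone 1 (EN186.4) and 4 from clone 2 (EN186.6). These are 12 of the 91 5C libraries of the series, which also holds Hi-C and ChIP-seq samples.

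All lines derived from male E14Tg2a mESCs (129/Ola), in which both alleles of endogenous CTCF carry an auxin-inducible degron (CTCF-AID) and Tir1 is expressed from a random insertion. Each line carried 1 mouse CTCF cDNA under a doxycycline-inducible promoter (TetO, with rtta3G) at the Tigre locus. Both mutants were treated for 4 days with 500 µM auxin, which degrades endogenous CTCF, and 1 µg/ml dox, which induces the transgene. The reference groups were the full-length transgene under the same treatment (line EN133.10, 14 libraries), a second full-length line labelled low expression (EN133.6, 2 libraries, auxin and dox) and EN133.10 with auxin but no dox (2 libraries), where the transgene was not induced. The swap line was 1 clone, so p-values rest on the spread between libraries of all groups in a test. They do not cover the spread between swap clones. The amount of transgenic protein and its binding to DNA were not analysed here for the swap line, and neither can be told apart from the exchange of the termini.

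CTCF binds DNA through its central zinc fingers and halts cohesin, the ring complex that extrudes chromatin loops. Cohesin that arrives from the side of the CTCF N terminus is the one that is retained, so the orientation of the DNA motif sets which way a site blocks. Boundaries of topologically associating domains (TADs) form where extrusion stops, and contacts across them are depleted. The region assayed lies on the X chromosome (chrX:98831149-103431148, mm9) and holds the X-inactivation centre with Xist, the noncoding RNA that coats the inactive X chromosome, and Tsix, its antisense repressor. These male cells do not inactivate their X.

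Both mutants keep the zinc fingers. Motif matches in peaks of full-length CTCF are shown because motif orientation sets the side to which its N terminus faces. The 6 CTCF-dependent boundaries of the study were used, each 1 bin of 20 kb. The FLAG-CTCF peaks were those of the full-length line after 2 days of auxin and dox, against 4 days for the 5C libraries. Of these peaks, 78 lay in the region, in 54 of its 230 bins. The motif CCANNAGNNGGC, searched on both strands, was present in 31 of these peaks (39.7%), 18 times on the plus strand and 13 times on the minus strand, in 43.3% of the 1128 peaks on the X chromosome and in 1.39% of 23000 tiles of 200 bases. Below are the matches in the boundary bins and in 2 further bins that differed between the mutants, with the motif in capitals, on the plus strand of mm9, each 60 bases long.
boundary 1, chrX:99170386-99170445: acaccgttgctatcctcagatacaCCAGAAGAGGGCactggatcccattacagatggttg
boundary 2, chrX:99414637-99414696: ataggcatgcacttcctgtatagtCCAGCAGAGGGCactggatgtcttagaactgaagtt
boundary 2, chrX:99415148-99415207: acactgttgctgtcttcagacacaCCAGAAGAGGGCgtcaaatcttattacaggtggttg
boundary 3, chrX:100455369-100455428: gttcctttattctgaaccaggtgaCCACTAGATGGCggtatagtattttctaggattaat
boundary 4, chrX:100677049-100677108: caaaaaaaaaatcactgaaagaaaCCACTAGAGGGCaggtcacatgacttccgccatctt
boundary 4, chrX:100679547-100679606: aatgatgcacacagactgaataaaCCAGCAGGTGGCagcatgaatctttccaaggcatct
boundary 6, chrX:103214271-103214330: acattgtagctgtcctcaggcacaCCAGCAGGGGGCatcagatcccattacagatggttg
boundary 6, chrX:103221910-103221969: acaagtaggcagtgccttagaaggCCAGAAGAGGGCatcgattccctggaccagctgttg
bin at the start of Atrx, chrX:103116936-103116995: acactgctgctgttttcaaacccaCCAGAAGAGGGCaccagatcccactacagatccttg
bin in Magt1, chrX:103152406-103152465: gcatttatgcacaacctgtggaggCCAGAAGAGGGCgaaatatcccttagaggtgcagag
All 10 matches read CCANNAGNNGGC on the plus strand. The sequence printed last lay outside Magt1, whose nearer end, at position 103163423, falls in the same bin. The bin of boundary 5 (chrX:101211149-101231148) held no peak. Its nearest gene not annotated as a pseudogene, 34.5 kb away, was Rlim, a ubiquitin ligase that promotes Xist expression. Boundary 1 lay inside Nhsl2 and boundary 3 inside 4930519F16Rik, both over at least 1 exon, and boundary 2 lay between genes, 11.6 kb from Cited1. Boundary 4 (chrX:100671149-100691148) held the start of Xist, exons of Tsix and the start of Enox, another noncoding RNA gene of the X-inactivation centre. Boundary 6 (chrX:103211149-103231148) held Cox7b exons, a subunit of cytochrome c oxidase, and the start of Atp7a, a copper transporter.

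Depth ranged from 4509541 to 23419010 raw 5C counts in the 10 ΔN(1–265) libraries and was 10146192 and 7231514 in swap replicates 1 and 2. No pair of the 12 libraries shared more than 2.75% of its nonzero counts, so none was a copy of another. The swap libraries and replicates 1 and 2 of each ΔN(1–265) clone carried consecutive library numbers. The other 6 ΔN(1–265) libraries had later numbers. Full-length replicates 8 and 9 and both low-expression full-length libraries had the numbers directly before the run.

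TAD insulation was lower with exchanged termini than without the N terminus. The insulation score used here is minus the log2 of the mean corrected contact between the 100 kb upstream and the 100 kb downstream of a bin, over the mean of all bins. A higher score means fewer contacts across the bin. Averaged over the 6 boundaries, the swap libraries scored 0.398 and 0.385. The ΔN(1–265) libraries of clone 1 scored 0.483, 0.464, 0.469, 0.463, 0.462 and 0.489, and those of clone 2 scored 0.517, 0.512, 0.485 and 0.482. Both swap libraries lay below all 10 ΔN(1–265) libraries. The means were 0.392 ± 0.0093 (SD, n = 2) and 0.482 ± 0.0196 (SD, n = 10), a difference of −0.091 (95% interval −0.132 to −0.063, two-sided exact permutation test, p = 0.0303, the smallest p that 2 against 10 libraries allow, adjusted p = 0.0404 over 4 comparisons of this score).

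Set beside the references, the mean score of the swap line was close to that of cells without any induced CTCF. Full-length libraries scored from 0.542 to 0.708 with a median of 0.603 (0.582 and 0.614 in replicates 8 and 9), low-expression full-length libraries 0.502 and 0.514, and libraries without dox 0.373 and 0.384. On a scale where full-length is 100%, the swap line stood at 64.5%, ΔN(1–265) at 79.4% and no dox at 62.3%. Put as a share of the distance from full-length to no dox, ΔN(1–265) lay 54.5% of the way and the swap line 94.1%. These shares average over boundaries that went opposite ways. Swap minus no dox was −0.096 at boundary 2 and positive at the others, up to 0.084 at boundary 6. ΔN(1–265) lay above full-length at boundary 4 (by 0.10) and below it at the others. Swap and no dox differed by 0.013, and 2 against 2 libraries cannot give an exact permutation p below 0.333. Both mutants scored lower than full-length, the swap line by −0.216 (exact permutation test, p = 0.0167, adjusted p = 0.0333) and ΔN(1–265) by −0.125 (permutation test with 100000 resamples, p = 2e-05, the smallest they can give, adjusted p = 8e-05).

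**Figure D1:**
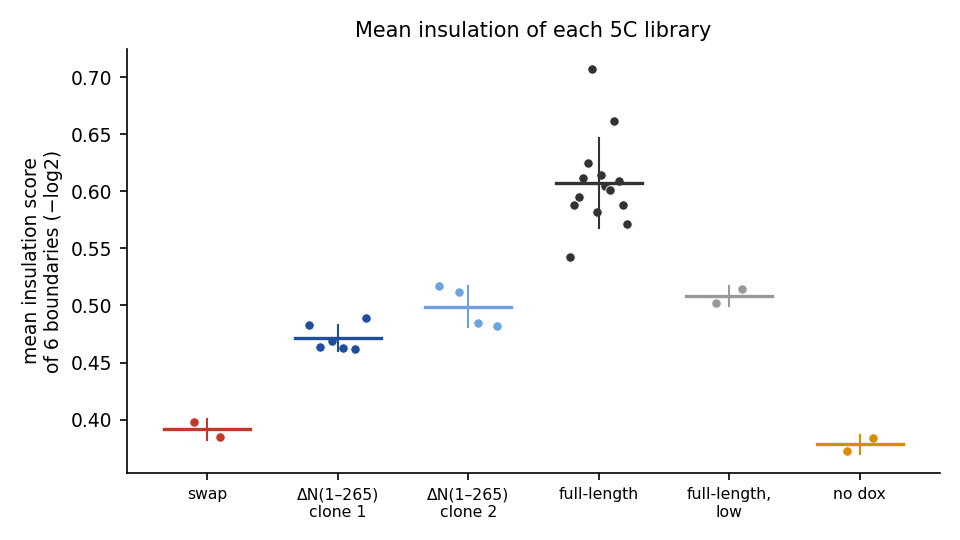
Mean insulation score of the 6 boundaries (vertical axis, −log2 scale, not starting at 0) for each 5C library, by group; horizontal bars are group means and vertical bars ± SD. The 2 swap libraries lie at 0.385 and 0.398, below all ΔN(1–265) libraries (0.462 to 0.517) and just above the 2 libraries without dox (0.373 and 0.384).

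Both swap libraries lay below all libraries of either ΔN(1–265) clone. Clone 1 averaged 0.471 ± 0.0115 (SD, n = 6) and clone 2 0.499 ± 0.0181 (SD, n = 4). The swap line was lower by −0.080 than clone 1 and by −0.107 than clone 2, against a difference between the clones of −0.027 (exact permutation test, p = 0.0476, adjusted p = 0.0476). Against only the 4 ΔN(1–265) libraries of its own run of library numbers, the swap line was lower by −0.102 (exact permutation test, p = 0.133, the smallest p for 2 against 4). Without iterative correction the difference was −0.137. Over the 4 boundaries of highest mean score in these libraries (2, 4, 5 and 6) it was −0.136. That set leaves out boundaries 1 and 3, where the mutants differed least, so its larger difference is no separate check. Leaving out swap replicate 1 or replicate 2 gave −0.097 and −0.084, and 1 library against 10 cannot give a p below 0.182.

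The difference was uneven over the boundaries: 3 of them carried it. At boundary 2, between genes near Cited1, which encodes a transcriptional co-regulator, the swap libraries scored 0.377 and 0.359. The ΔN(1–265) libraries ranged from 0.403 to 0.561 with a median of 0.497. Every swap value lay below every ΔN(1–265) value, and also below the 0.438 and 0.490 measured without dox. At boundary 4, at the start of Xist, the swap libraries scored 1.23 and 1.24 against 1.39 to 1.65 (median 1.44) for ΔN(1–265). Here the swap line sat at the level without dox (1.17 and 1.27). At boundary 6, at Cox7b and Atp7a, they scored 0.575 and 0.459 against 0.586 to 0.722 (median 0.633), and no dox gave 0.437 and 0.429. The 2 swap libraries stood further apart here than at any other boundary.

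The differences from ΔN(1–265) were −0.13 at boundary 2 (95% interval −0.20 to −0.027), −0.25 at boundary 4 (−0.42 to −0.15) and −0.13 at boundary 6 (−0.26 to −0.011). Each had the smallest p of the exact permutation test, p = 0.0303, and an adjusted p = 0.0606 over the 6 boundaries, so none of the 6 passed alone. With 2 swap libraries, at least 4 boundaries would have to reach the smallest p for any to pass. Within the run of consecutive library numbers the differences were −0.11, −0.23 and −0.16. At boundary 6 the difference was −0.068 without swap replicate 2 and −0.184 without swap replicate 1.

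At the other boundaries the mutants lay within each other's spread. At boundary 3, inside 4930519F16Rik, the swap libraries scored 0.0744 and 0.0785 and the ΔN(1–265) libraries −0.018 to 0.189 (median 0.090). Full-length libraries scored 0.300 to 0.437 there, above every library of either mutant. At boundary 5, near Rlim, the swap libraries scored 0.368 and 0.376 and ΔN(1–265) 0.349 to 0.469 (median 0.419), again below every full-length library (0.629 to 0.794). Relative to full-length, the score at boundary 3 fell by 0.31 in the swap line and by 0.29 in ΔN(1–265), and at boundary 5 by 0.34 and by 0.29 (limma, adjusted p of at most 7.67e-08 over 193 bins). These 2 comparisons share the full-length libraries. Between the mutants, the interval of the difference was −0.11 to 0.097 at boundary 3 (exact permutation test, p = 0.545) and −0.10 to 0.027 at boundary 5 (exact permutation test, p = 0.121). Boundary 1, in Nhsl2, scored −0.235 and −0.199 in the swap line and −0.359 to −0.176 in ΔN(1–265), a difference of 0.018 with an interval of −0.059 to 0.16 (exact permutation test, p = 0.636). The lower ends of the intervals at boundaries 3 and 5 came close to the differences at boundaries 2 and 6.

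Boundary 4 was the one where ΔN(1–265) and full-length stood in the opposite order. The score of ΔN(1–265) (1.48 ± 0.079, SD, n = 10) was higher than that of full-length (1.38 ± 0.14, SD, n = 14) by 0.10 (limma, adjusted p = 0.0415), whereas the swap line was lower than full-length by −0.15 (limma, adjusted p = 0.125). Full-length replicates 8 and 9, numbered directly before the run, scored 1.41 and 1.50 at boundary 4. The ΔN(1–265) libraries of the run scored 1.44, 1.43, 1.44 and 1.56, so these libraries overlapped. The 20-kb bin directly upstream of boundary 4 is described with the profile.

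**Figure D2:**
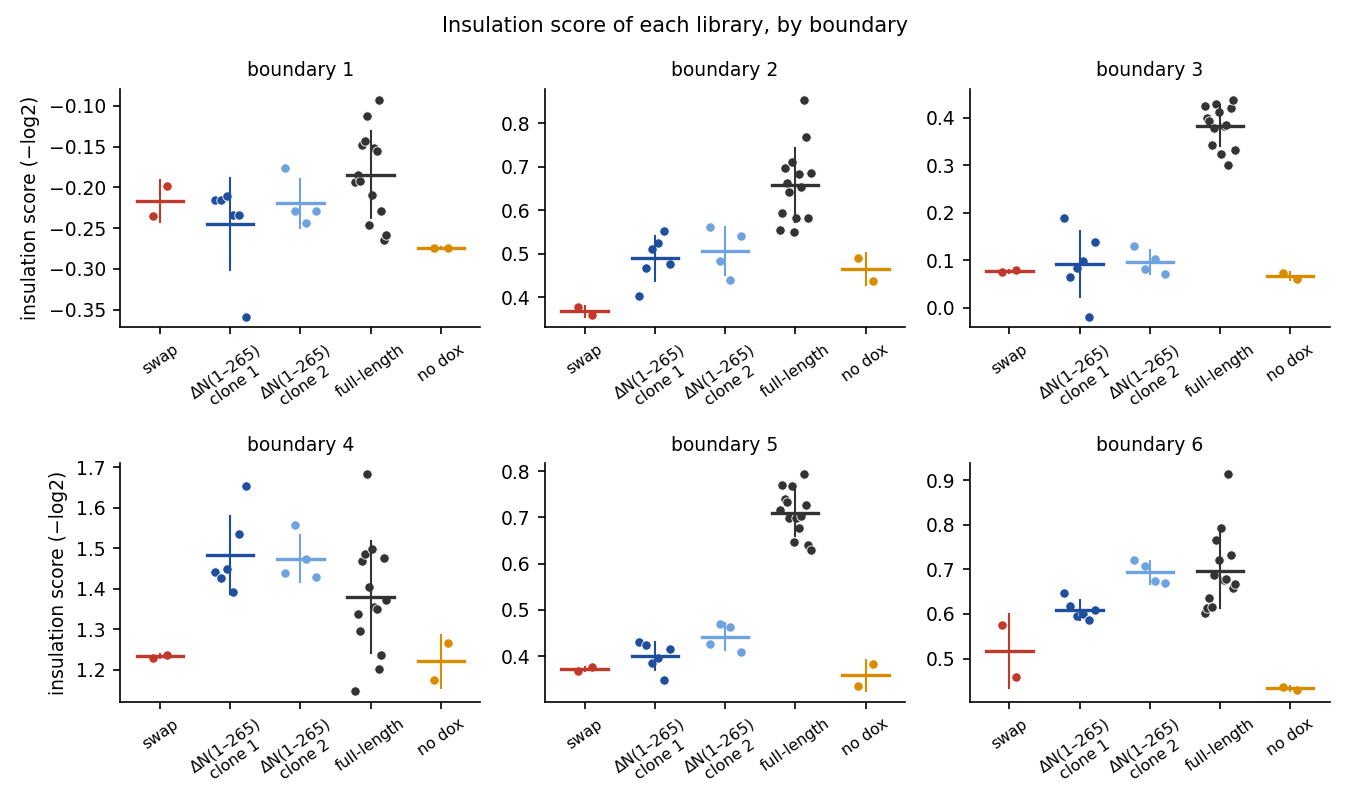
Insulation score (vertical axes, −log2 scale, each panel with its own range) of every library at each of the 6 boundaries; horizontal bars are group means and vertical bars ± SD. The swap libraries lie below all ΔN(1–265) libraries at boundaries 2, 4 and 6, and among them at boundaries 1, 3 and 5, where both mutants fall below all full-length libraries at 3 and 5.

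The whole insulation profile placed the lower scores of the swap line in a few stretches. Scores were obtained for 193 bins and compared by limma over 28 libraries, with Benjamini-Hochberg adjustment over all bins. The swap line was lower than ΔN(1–265) in 7 bins and higher in none, so that 3.63% of bins passed at an adjusted p below 0.05, while 29 bins had an unadjusted p below that level. Both swap libraries lay below all 10 ΔN(1–265) libraries in 20 bins (10.4%) and above all of them in 13 (6.74%). By the same fit 47.2% of bins passed between swap and full-length and 62.7% between ΔN(1–265) and full-length, comparisons with 14 full-length libraries and unequal numbers of mutant libraries. Against no dox, 3.11% passed for the swap line and 21.8% for ΔN(1–265), which has more libraries. Without either one of the swap libraries no bin passed (17 and 26 bins at an unadjusted p below 0.05), and in uncorrected counts none did (32 bins).

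Of the 7 bins, 5 lay between position 103071149 and boundary 6, over Atrx, a chromatin remodeller mutated in an intellectual disability syndrome, and Magt1, a magnesium transporter. The bin with the smallest p was in Atrx (chrX:103091149-103111148). It scored −0.0984 and −0.0940 in the swap libraries and from 0.0060 to 0.146 (median 0.071) in ΔN(1–265), so that the groups did not overlap. The difference was −0.16 ± 0.033 (SE, limma, adjusted p = 0.00629), and full-length averaged 0.030 there and no dox −0.058. The bin at the start of Atrx (chrX:103111149-103131148), whose peak sequence is printed above, scored −0.227 and −0.210 against −0.146 to 0.0005 (median −0.075), a difference of −0.14 ± 0.034 (SE, limma, adjusted p = 0.0158). The bin over the end of Magt1, with the other printed sequence outside the gene (chrX:103151149-103171148), scored −0.237 and −0.172 against −0.123 to −0.032 (median −0.078). The difference was −0.12 ± 0.028 (SE, limma, adjusted p = 0.0135). The remaining bins of this stretch, in Atrx (chrX:103071149-103091148) and Magt1 (chrX:103171149-103191148), differed by −0.14 and −0.096. Full-length averaged −0.117 and −0.145 in the bins with printed sequences, where ΔN(1–265) averaged −0.082 in both. In the remaining bins full-length averaged 0.290 and 0.177, and ΔN(1–265) 0.268 and 0.224. Full-length thus lay between the mutants in these bins, except in the remaining bin of Atrx, where it lay above both. Neighbouring bins share most of the contacts in their windows and are not independent of each other.

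Outside that stretch, the bin directly upstream of boundary 4 (chrX:100651149-100671148) held Xist exons and Tsix intron. Its 2 peaks held no match to CCANNAGNNGGC. It scored 1.28 and 1.35 in the swap libraries, 1.52 to 1.77 (median 1.57) in ΔN(1–265), 1.55 to 1.98 (median 1.65) in full-length and 1.30 and 1.46 without dox. The difference between the mutants was −0.29 ± 0.074 (SE, limma, adjusted p = 0.0169), the largest of the 193. The swap line thus lay below both ΔN(1–265) and full-length and overlapped the no dox libraries. The last bin (chrX:102631149-102651148) held no gene and no peak. It lay 44.0 kb from Cypt2-ps, the nearest gene not annotated as a pseudogene. It scored −0.261 and −0.278 against −0.210 to −0.111 in ΔN(1–265), a difference of −0.12 ± 0.030 (SE, limma, adjusted p = 0.0158). Both swap values lay within the full-length range of −0.293 to −0.170. The ΔN(1–265) mean of −0.151 was above the full-length mean of −0.224. Within the run of consecutive library numbers this bin missed the threshold (−0.11, limma, adjusted p = 0.0735), while the named bins of Atrx, Magt1 and Xist kept it.

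**Figure D3:**
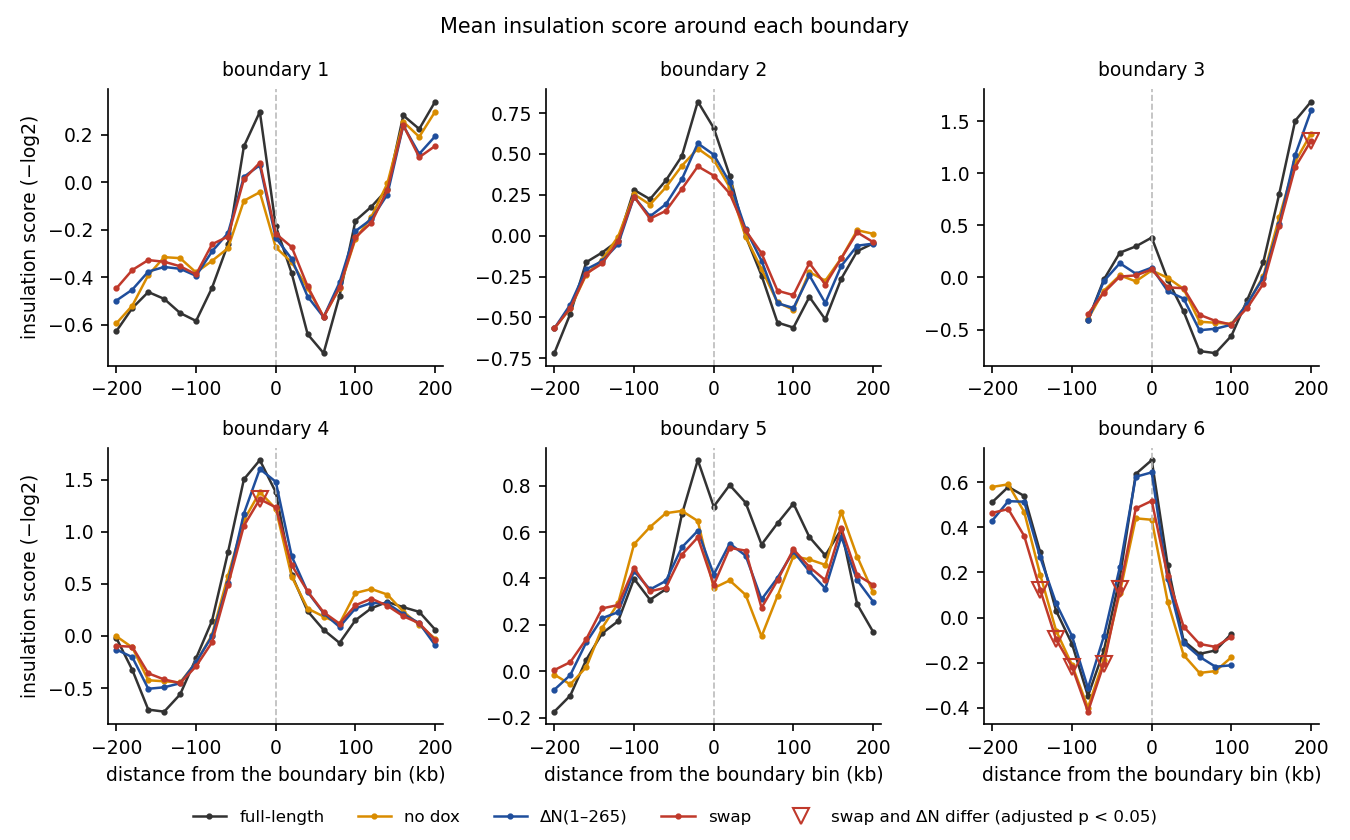
Mean insulation score (vertical axes, −log2 scale) against the distance from each boundary bin in kb, for full-length, no dox, ΔN(1–265) and swap; open triangles mark bins where swap and ΔN(1–265) differed at a limma adjusted p below 0.05. The marked bins lie upstream of boundary 6 and directly upstream of boundary 4, the latter also shown at the right edge of the boundary 3 panel, and at each the swap line is the lower of the mutants.

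Over all bins the profiles of the mutants were nearer to each other than to full-length. The root mean square distance between the profiles of 2 libraries averaged 0.0899 for swap with ΔN(1–265), against 0.0758 between ΔN(1–265) libraries and 0.0655 between the swap libraries. It was 0.157 for swap with full-length, 0.139 for ΔN(1–265) with full-length, 0.0968 for swap with no dox and 0.113 for ΔN(1–265) with no dox. These distances share libraries and are given as a description.

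Contacts across the boundaries were also uneven. The 6 boundaries cut the region into 7 segments, and the mean of observed over expected contacts (expected being the mean at the same distance in the same library) was taken on a log2 scale within each segment and between neighbours. Across boundary 6 (segments 6 and 7) the swap libraries gave 0.0001 and 0.014, and ΔN(1–265) −0.189 to −0.112 (median −0.139), a difference of 0.15 (95% interval 0.11 to 0.20). Across boundary 4 (segments 4 and 5) they gave −0.808 and −0.814 against −1.07 to −0.873 (median −0.936), a difference of 0.14 (0.060 to 0.26). Swap contacts across both boundaries exceeded those of all ΔN(1–265) libraries. Contacts across boundary 3 were also above all ΔN(1–265) libraries (0.242 and 0.275 against 0.053 to 0.179, a difference of 0.14), although the insulation scores of the mutants overlapped at that boundary. Those across boundary 2 were above all ΔN(1–265) libraries too, by 0.085. Across boundaries 1 and 5 the differences were 0.023 (−0.038 to 0.056) and 0.020 (−0.025 to 0.051). Against full-length, the swap mean differed by 0.022, 0.0047 and 0.073 across boundaries 2, 3 and 4. The ΔN(1–265) mean differed from full-length by −0.063, −0.14 and −0.071. Across boundaries 2 and 3 the swap line thus lay nearer to full-length, and ΔN(1–265) lay below it. No dox averaged −0.0051, 0.433 and −0.924 across boundaries 2, 3 and 4.

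Contacts within the last segments were the lower ones. Within segment 5, between Xist and boundary 5, the swap libraries gave −0.025 and −0.034 and ΔN(1–265) 0.040 to 0.080 (median 0.054), a difference of −0.087. Within segment 6, which spans 1980 kb up to boundary 6, they gave 0.031 and 0.025 against 0.093 to 0.126 (median 0.103), a difference of −0.077, and within segment 7 the difference was −0.073. In all, 7 of 13 values did not overlap between the mutants, and each had the smallest exact permutation p, 0.0303, with an adjusted p = 0.0563 over the 13, so none passed. The order of the groups was not the same everywhere: across boundary 6 the full-length libraries gave the highest contacts (mean 0.240 ± 0.072, SD, n = 14) and no dox −0.074, so that the swap line lay between them. These contacts also enter the insulation scores near each boundary and are no separate evidence.

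**Figure D4:**
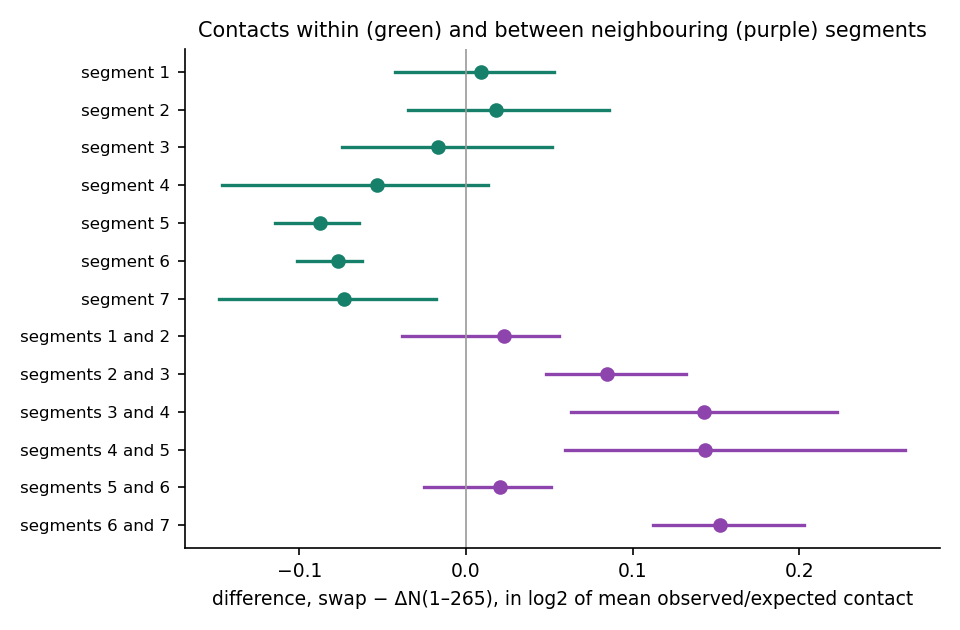
Difference between swap and ΔN(1–265) (horizontal axis, log2 of mean observed over expected contact) within each of the 7 segments and between neighbouring segments; points are differences of group means and bars 95% intervals from the exact permutation test. Swap contacts are lower within segments 5, 6 and 7 and higher between segments 2 and 3, 3 and 4, 4 and 5, and 6 and 7, with none past the adjusted threshold.

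Mean contact between bins that hold FLAG-CTCF peaks stood higher in the swap line than in ΔN(1–265). The measure averaged all such bin pairs, and peaks of 5C signal were not called. Over the 344 bin pairs 100 to 1000 kb apart with a FLAG-CTCF peak in both bins, the log2 of the mean observed over expected contact was 0.352 and 0.333 in the swap libraries. It ranged from 0.22 to 0.326 (median 0.263) in the ΔN(1–265) libraries, all of which lay lower. Full-length averaged 0.398 ± 0.033 (SD, n = 14), low-expression full-length 0.395 and no dox 0.358. The difference of 0.076 had a 95% interval of 0.0062 to 0.13 (exact permutation test, p = 0.0303, adjusted p = 0.0303 over both classes). Over the 4506 bin pairs with no peak in either bin, the values were −0.0612 and −0.0664 against −0.0543 to −0.0353, a difference of −0.020 (95% interval −0.031 to −0.0068, exact permutation test, adjusted p = 0.0303).

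This measure thus ordered the mutants the other way round from insulation: the swap line lay nearer to full-length, and no dox, where no CTCF was induced, nearer still. The highest ΔN(1–265) library, clone 1 replicate 2, came within 0.0062 of the lower swap library. Within the run of consecutive library numbers the differences were 0.059 and −0.017, and 2 against 4 libraries cannot pass. Both calls were lost when bins took the median in place of the mean of their primer pairs (0.043 and −0.014) and between 200 and 600 kb (0.093 and −0.017).

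**Figure D5:**
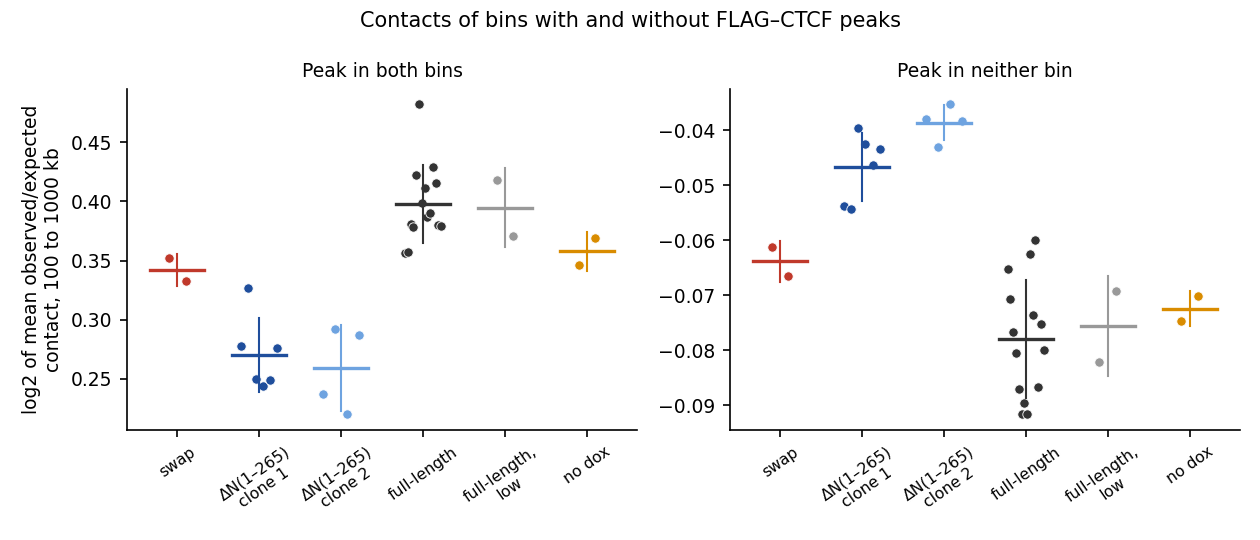
Log2 of the mean observed over expected contact, 100 to 1000 kb (vertical axes, each with its own range), for bin pairs with a FLAG-CTCF peak in both bins (left) and in neither (right); points are libraries, horizontal bars group means and vertical bars ± SD. With peaks in both bins the swap libraries (0.333 and 0.352) lie above all ΔN(1–265) libraries (0.22 to 0.326), and with no peak they lie below them.

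The asymmetry of contacts at a boundary was compared because the motifs printed above all point one way. It was taken as the log2 of the mean contact of the boundary bin and its neighbours with bins 40 to 500 kb downstream over those upstream. At boundary 6 the swap libraries gave 0.831 and 0.896 and ΔN(1–265) 1.05 to 1.19 (median 1.14), a difference of −0.27 (95% interval −0.36 to −0.16). Full-length averaged 0.901 ± 0.071 (SD, n = 14) there and no dox 1.08. At boundary 5, with no peak, the swap libraries gave −0.096 and −0.117 against −0.228 to −0.125, a difference of 0.065. Both differences had the smallest exact permutation p, 0.0303, and an adjusted p = 0.0909 over 6 boundaries, so neither passed. At boundary 4 the swap libraries gave −0.023 and 0.031 and ΔN(1–265) −0.0028 to 0.296 (median 0.15), overlapping, with full-length at 0.654 (mean) and no dox at 0.292. At boundary 2 the mutants gave nearly the same mean, 0.709 and 0.707, with an interval of −0.15 to 0.13, and both lay below the full-length range of 1.07 to 1.31. At boundaries 1 and 3 the mutants differed by −0.043 (−0.14 to 0.068) and 0.0067 (−0.13 to 0.11). Full-length averaged −0.115 and −0.595 there, opposite in sign to boundaries 2, 4 and 6. The sign of the measure thus did not follow the orientation of the printed motifs. These are a part of the sites: the bins of boundaries 2, 4 and 6 also held peaks without a match. Peaks in the neighbouring bins, which the measure includes, are not printed.

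Contact between the boundaries themselves, in squares of 3 by 3 bins, gave 15 pairs. Groups did not overlap at 2 of them. For boundaries 2 and 5 the swap libraries gave 0.530 and 0.718 and ΔN(1–265) −0.506 to 0.521 (median 0.393), on the log2 scale of observed over expected contact. For boundaries 4 and 5 they gave −0.064 and 0.038 against 0.042 to 0.275 (median 0.159). The differences were 0.36 and −0.16 (exact permutation test, p = 0.0303, adjusted p = 0.227 over 15 pairs), and none of the 15 passed.

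The decay of contact with distance differed little. The swap libraries held 29.1% and 29.3% of their corrected contact between 300 and 1000 kb, and ΔN(1–265) 27.6% to 28.3%. Beyond 2000 kb they held 5.44% and 5.30%, against 5.49% to 7.11% (median 5.94%). The groups did not overlap in these 2 of 5 distance bands, and neither passed (exact permutation test, p = 0.0303, adjusted p = 0.0758). Without ΔN(1–265) clone 2 replicate 1, which had the highest share beyond 2000 kb, 4 of the 5 bands passed, as they did with medians over primer pairs.

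Single bin pairs were tested over the whole map by limma with Benjamini-Hochberg adjustment over 20617 pairs. Between the mutants 1 pair passed (0.00485%), and 852 (4.13%) had an unadjusted p below 0.05. That share was no more than this level gives without any difference. Between swap and full-length 0.0873% passed, and between ΔN(1–265) and full-length 4.68%. The swap comparison has fewer mutant libraries, so these shares do not rank the mutants by their distance from full-length. The median standard error was 0.48 on the log2 scale and rose from 0.12 at 40 to 100 kb to 0.89 beyond 2000 kb. A change has to exceed its standard error several times to pass over 20617 pairs. Smaller changes of single bin pairs could therefore not be called at long range. The pair that passed differed by −3.98 with a standard error of 0.43.

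The pair that passed joined chrX:99231149-99251148 in segment 2 with chrX:102111149-102131148 in segment 6, 2880 kb apart, with no peak in either bin. It had 0 raw counts in both swap libraries and 9, 13, 41, 12 and 11 in ΔN(1–265) clone 1 replicates 1, 2, 3, 5 and 6, with the highest count of all in replicate 4, the deepest library. Clone 2 had 48, 44, 55 and 64. Full-length libraries had 8 to 86 and the library without dox 24. The 6 primer pairs behind it gave 458 counts in ΔN(1–265). Taking 3 counts over both swap libraries as the limit that 0 allows, and relative to the raw totals, the swap line was at least 22.9-fold lower, in counting error only. The 4 ΔN(1–265) libraries of the same run of numbers had 9, 13, 48 and 44, and the call was lost within that run (adjusted p = 0.314, limma) and with a pseudocount of 0.5 (adjusted p = 0.0618, limma).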

How the data were processed

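5C reads were mapped by the authors to primer pairs in mm9 coordinates (the mapper for 5C is not given in the sources used here; Bowtie2 and SAMtools are named in the submitters' processing notes). Deposited raw counts per primer pair are uncorrected. The authors' deposited corrected signal came from iterative correction at fragment level (cooltools), as symmetric matrices or, in 5 libraries (3 of ΔN(1–265), 2 of full-length), forward by reverse. Deposited FLAG-CTCF peaks, in mm9, are those of the full-length protein after 2 days of auxin and dox.

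Corrected signal was averaged into 20-kb bins, the first 2 diagonals were filled, and insulation scores used a 100-kb window with at least 50% of the square measured. Raw counts served for depth and alternatives; 3 matrices (1 without dox, 2 full-length), whose columns stop early, were not used. Single values were compared by two-sided exact permutation tests (p = 2 × the smaller tail; intervals by inverting the test), with 100000 permutations for full-length against ΔN(1–265). Profile and map were fitted with limma 3.58.1 in R 4.3.3, the map as log2(observed over expected + 0.1) with a trend, over full-length, no dox, ΔN(1–265) and swap libraries, with both ΔN(1–265) clones as 1 group. Python 3.11.15, numpy 2.4.6 and scipy 1.17.1 did the rest, and the steps were tested on simulated data. The adjusted threshold was 0.05. The genome and annotation were NCBIM37 (mm9), and all 988 primer fragments had the HindIII site at both ends.

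Named bins were the 6 boundaries, the 5 bins of lowest adjusted p per direction among those that passed, and the 5 largest bin pairs that passed. The bins in Atrx and Magt1 named beside these, and the values of other alternatives, were chosen after their values were seen. The groups compared and the lists were chosen with earlier results of these data known. PCR reads carry no molecular identifiers, so limits cover counting error only. Replicate numbers 1 and 2 were checked for pairing (correlation of deviations from the group means) and were not taken as pairs. The alternatives tried are given in the closing section.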

Additional observations from a re-analysis of the deposited data

Results flagged for a closer look

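Among the values of ΔN(1–265), examined by clone and over both clones (groups of 4 to 10 libraries), 14 groups, or 9.72% of those examined, had a library set apart from the others by Dixon's 95% criterion, which chance meets in about 1 group in 20. Swap, with 2 libraries, could not be examined this way. ΔN(1–265) clone 1 replicate 6 scored −0.359 at boundary 1, both among the 6 libraries of its clone (nearest −0.234) and among all 10 (nearest −0.244), and −3.26 for contact of boundaries 1 and 6 (nearest −0.567), again in both groupings. Clone 1 replicate 5 gave 0.054 for contacts between segments 5 and 6 (nearest 0.0076), −1.17 for boundaries 1 and 3 (nearest −0.570) and −0.506 for boundaries 2 and 5 (nearest −0.011). Clone 2 replicate 1 held 24.5% of contact at 40 to 100 kb (nearest 25.8%), 28.6% at 100 to 300 kb (nearest 29.6% in both its clone and all 10) and 7.11% beyond 2000 kb (nearest 6.27%), and gave 0.956 for boundaries 1 and 4 (nearest 0.499). Clone 2 replicate 3 gave −0.024 for boundaries 3 and 4 (nearest −0.135), and clone 2 replicate 4 gave 0.126 within segment 6 (nearest 0.110). The mean over the 6 boundaries had no such library in either clone.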

How the results depend on the processing

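Over 869 recomputed values of 49 results, 748 kept their direction and their side of the threshold, 71 lost the threshold, 20 gained it and 30 changed sign. The lower mean insulation of the swap line kept its sign in every alternative tried, from −0.137 to −0.084, with adjusted p from 0.0303 to 0.222. With symmetric matrices only it was −0.095 (exact permutation test, adjusted p = 0.0741), where 0.0556 is the smallest p. Leaving out single libraries gave −0.097 to −0.084, and for swap against full-length −0.222 to −0.209. Losses of the call on leaving out a swap library follow from the smallest p of the smaller design. The difference between the ΔN(1–265) clones lost its call in raw counts (−0.026), with medians over primer pairs (−0.038), with symmetric matrices (−0.029), with a 200-kb window (−0.021), in the bin directly upstream (−0.010) and on leaving out single libraries (−0.033 to −0.021).

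Same-numbered replicates deviated with correlations of −0.20 between the ΔN(1–265) clones, 0.136 between clone 1 and swap and 0.0144 between clone 2 and swap, so the numbers were not taken as pairs. With the replicate number as a block, on replicates 1 and 2, mean insulation differed by −0.102 (exact permutation test, p = 0.222, the smallest possible). It did so too within the run of consecutive library numbers. The block called 6 bins of the profile against 7 and 0 peak classes against 2. It called 0 bin pairs against 1, with 1051 of 20617 at an unadjusted p below 0.05 (limma).

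Called bins of the profile numbered 13 with only swap and ΔN(1–265) in the fit, 6 of them shared, 0 in raw counts (limma, 32 at an unadjusted p below 0.05) and 0 to 9 on leaving out single libraries. Called bin pairs numbered 3 with only swap and ΔN(1–265), 2 in raw counts, 2 with symmetric matrices, 19 within the run (the pair described not among them), and 0 with a pseudocount of 0.5, without pairs holding a zero and in 40-kb bins (964, 673 and 325 at an unadjusted p below 0.05 by limma). Without single libraries there were 1 to 3, with 2 or 3 on leaving out either swap library or ΔN(1–265) clone 1 replicate 1 or 4 or clone 2 replicate 1. Of the peak classes 0 passed with medians, between 200 and 600 kb, within the run, with symmetric matrices or without either swap library (0 to 2 over single libraries). Of the distance bands 4 passed with medians and 0 to 4 without single libraries. The causes were not tested.

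None of the differences whose sign turned had passed as reported. Boundary 1 became −0.017 in raw counts, −0.0078 in the block and the run, and ranged from −0.00016 to 0.036 without single libraries. Contacts within segment 1 became −0.0087 in the block and the run, and those within segments 3 and 4, −0.017 and −0.054 as reported, became 0.047 and 0.042 in raw counts. The share at 100 to 300 kb became 0.411 percentage points in raw counts, 0.142 in the block and the run and 0.010 with symmetric matrices, and that at 1000 to 2000 kb, 0.443 as reported and past the threshold with medians (1.73), became −0.498 in raw counts. Asymmetry at boundary 2 became −0.038 with medians, −0.0069 in the block and the run and −0.081 at 40 to 300 kb, and at boundary 3 −0.029 with medians, −0.029 in the block and the run, −0.0013 with symmetric matrices and −0.041 at 40 to 300 kb. On leaving out single libraries the asymmetry spanned −0.031 to 0.034 at boundary 2, and at boundary 3 it spanned −0.010 to 0.024. With all 12 libraries thinned to 4251744 counts, mean insulation differed by −0.088.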
